A study of Homo sapiens and Mus musculus with 92 samples.

Results

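The genes described here are 8 metallothionein genes (MT1A, MT1E, MT1F, MT1G, MT1H, MT1M, MT1X and MT2A), the zinc-sensing transcription factor MTF1 and the zinc exporter SLC30A1, 10 of the 28103 gene rows in the count tables. They were chosen by gene symbol, starting from the fall of MT1A after AF9 knockdown (KD), so their values in the AF9 experiment are a description and carry no test. RNA-seq was performed in HEL cells, an established human erythroleukemic line without an MLL rearrangement, and 10 of the 92 samples of the series are used here. In the MLL1 experiment, 3 control libraries stand against 3 from cells transduced with MLL1 shRNA #1, and in the AF9 experiment 2 control libraries stand against 2 from cells transduced with AF9 shRNA #1. The labels give the control genotype as WT, while the methods of the study name a control shRNA. A single shRNA per target was used in these libraries, each experiment has its own controls, and all cells were grown in RPMI-1640 with serum. Nothing in the labels says that replicates came from separate cultures, so p values measure the spread between these libraries, which may be technical.

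Metallothioneins are small cysteine-rich proteins that bind zinc and copper in the cytoplasm and buffer the free metal. When zinc rises, MTF1 binds metal response elements in the promoters of metallothionein genes and of SLC30A1, which moves zinc out of the cell, and switches these genes on. Import of zinc into the cytoplasm is carried out by the ZIP family (SLC39A genes), and export or loading into organelles by the ZnT family (SLC30A genes). Metallothionein genes also respond to glucocorticoids and oxidative stress.

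All 8 metallothionein genes lie within 75.6 kb of chromosome 16 (hg38, 56608584 to 56684196), 7 on the plus strand and MT1G on the minus strand. MTF1 lies on the minus strand of chromosome 1 (37809574 to 37859592), and so does SLC30A1 (211571568 to 211579161). The metallothionein transcripts are short and similar, which bears on how reads can be assigned. Of the 31-base stretches in the canonical transcript, 13.9% in MT1F, 18.9% in MT1A, 22.6% in MT1E, 31.1% in MT1G, 31.5% in MT2A, 39.7% in MT1M, 41.4% in MT1H and 54.0% in MT1X also occur in a transcript of another gene. For MT1X 23.0% are shared with other metallothioneins. The share was 1.88% for MTF1 and 0% for SLC30A1. The split of reads among single metallothionein rows is therefore uncertain, and sums over the rows are given as well. How shared reads were counted is not given. A sum does not restore reads that were dropped or counted for a gene outside it.

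RefSeq promoter entries (GRCh38.p14) matched 5 of the 10 genes, namely MT1H, MT1X, MT2A, MTF1 and SLC30A1, and the 250 bases before each start were searched for the core of the metal response element, TGCACNC or TGCGCNC, on both strands. The 3 promoters below belong to the genes with an entry that were called lower after AF9 KD. MT1H, which also has an entry, was not tested. Capitals mark the core matches, those on the opposite strand appearing as their reverse complement.
MT2A (chr16:56608334-56608583, plus strand): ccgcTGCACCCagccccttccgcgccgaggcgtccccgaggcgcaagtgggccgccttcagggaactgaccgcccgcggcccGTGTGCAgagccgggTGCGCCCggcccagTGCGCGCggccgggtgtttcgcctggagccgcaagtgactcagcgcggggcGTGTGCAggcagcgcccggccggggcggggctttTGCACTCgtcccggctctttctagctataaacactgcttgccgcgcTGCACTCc
MT1X (chr16:56682220-56682469, plus strand): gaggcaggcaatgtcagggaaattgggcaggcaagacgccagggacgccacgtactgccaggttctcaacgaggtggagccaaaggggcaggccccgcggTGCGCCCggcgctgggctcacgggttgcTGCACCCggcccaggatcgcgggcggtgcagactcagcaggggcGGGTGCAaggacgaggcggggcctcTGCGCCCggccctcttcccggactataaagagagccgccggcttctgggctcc
SLC30A1 (chr1:211579162-211579411, minus strand): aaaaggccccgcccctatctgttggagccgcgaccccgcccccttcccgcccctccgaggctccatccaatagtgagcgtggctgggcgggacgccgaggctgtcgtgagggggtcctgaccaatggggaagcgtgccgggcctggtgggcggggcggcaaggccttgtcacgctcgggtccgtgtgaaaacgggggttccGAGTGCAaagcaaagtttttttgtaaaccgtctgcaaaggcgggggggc
There were 7 matches in MT2A, 4 in MT1X and 1 in SLC30A1. MT1H had 8, and none was found in MTF1. Of 35116 promoters of this length, 24.8% held at least 1 match, 0.37% at least 4, 0.0313% at least 7 and 0.0171% at least 8. MT1X and MT1H both had matches from 78 to 72 and from 53 to 47 bases before the start, and MT2A had one from 54 to 48. A match is a description of the letters and not evidence of a bound site.

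**Figure D1:**
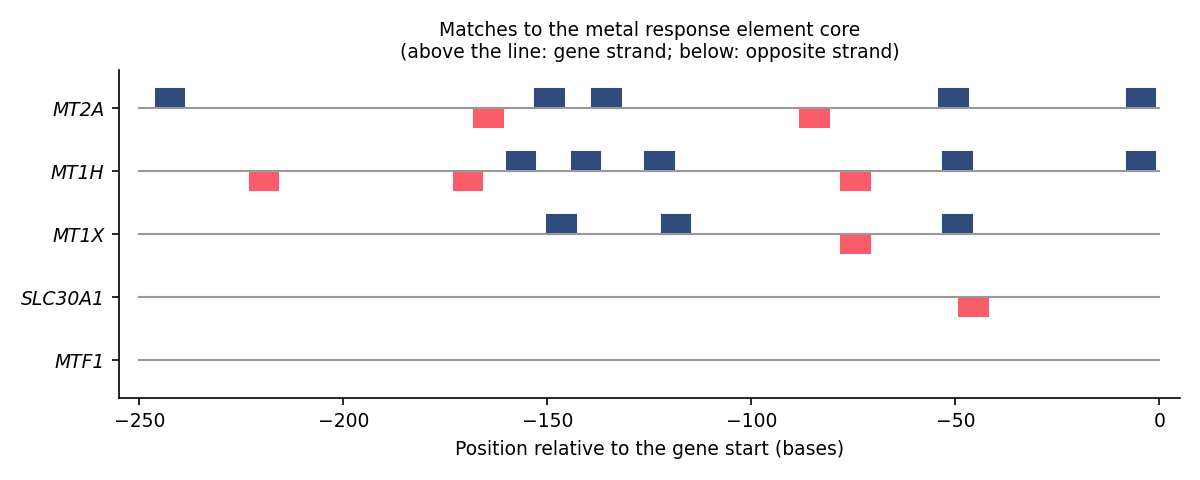
Positions of matches to the metal response element core in the 250 bases before the start of 5 genes, in bases relative to the gene start. Boxes above a line are matches on the gene strand and boxes below it on the opposite strand. MT1H holds 8 boxes, MT2A 7, MT1X 4, SLC30A1 1 and MTF1 none.

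Total counts ranged from 6966345 to 10380241 in the MLL1 experiment and from 12278989 to 14232408 in the AF9 experiment. Levels are given as CPM, counts brought to a common library size with TMM factors, and levels are compared between genes as TPM, which also divides by exon length. Genes averaging 1 TPM or more in an experiment were tested with edgeR's quasi-likelihood test. A call required a fold change of 1.5 or more together with a Benjamini-Hochberg adjusted p under 0.05. This left 14389 genes and 7 of the 10 in the MLL1 experiment, and 13333 genes and 9 of the 10 in the AF9 experiment. MT1A and MT1M passed this filter in the AF9 experiment through the control libraries, since their mean in AF9 KD cells was 0.880 and 0.682 TPM. The targeted genes were lower where the labels say so. KMT2A, which encodes MLL1, was at 63.5% of control in MLL1 KD cells (edgeR adjusted p = 0.0724, called with the replicate block), and MLLT3, which encodes AF9, was at 18.6% of control in AF9 KD cells. In the other experiment neither was called. KMT2A was at 80.2% of control in AF9 KD cells, and MLLT3 was at 82.2% in MLL1 KD cells with overlapping groups. Erythroid markers (13 of 13) and megakaryocyte markers (5 of 5) averaged at least 1 CPM in both experiments. That level alone does not tell cell types apart. Fibroblast markers reached it for 4 of 4 in the MLL1 experiment and 1 of 4 in the AF9 experiment. Epithelial markers reached it for 2 of 4 in the MLL1 experiment and 3 of 4 in the AF9 experiment.

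After AF9 KD, 6 metallothionein genes (MT1A, MT1E, MT1F, MT1G, MT1X and MT2A) were at 8.84% to 50.9% of control, SLC30A1 was at 34.0%, and MTF1 was at 95.4%. In this contrast 7 of the 9 tested genes were called lower and 0 higher, where 5.06% of all genes tested were called lower and 8.02% higher. Since MT1A was picked from this contrast and the others as its family, nothing is read from that count. In 8 of the 9, both AF9 KD libraries lay below both control libraries, as they did for 33.2% of all genes tested. The 8 include MT1A and MT1M, which passed the filter through the control libraries. For these reasons nothing is read from this count either.

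MT1A had 11 and 11 counts in the control libraries and 1 and 1 in the AF9 KD libraries (0.798 and 0.923 CPM against 0.0773 and 0.0748 CPM). The groups did not overlap, and the summed counts, 22 against 2, gave a control to KD ratio of 11.3 with a 95% interval of 2.77 to 98.7 for counting error only. Its fitted log2 fold change of -3.34 (SE 0.78) was the 10th lowest of the 13333. The genes next to it in that order, MIR126 and MIR7851 just ahead and SNORD95 and MIR550A1 just behind, were short RNAs with 0 to 2 counts per library. MT1A was chosen for this fall, so the interval and the rank are a description and give it no support. Per length, MT1A stood at 9.24 TPM in control cells.

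MT1X was the most highly counted MT1 gene, at 106 and 123 CPM in control libraries and 33.9 and 33.0 CPM in AF9 KD libraries. Both KD libraries were far below both controls, at 29.2% of control (log2 fold change -1.77, SE 0.11). MT1G went from 37.8 and 45.2 CPM to 13.5 and 12.3 CPM, a log2 fold change of -1.68 (SE 0.14). MT1E stood at 33.7 and 36.0 CPM against 11.4 and 8.52 CPM (-1.81, SE 0.16). The 3 genes thus had log2 fold changes from -1.81 to -1.68, and in each the KD libraries lay below the controls. MT1F had 3.70 and 3.52 CPM in control libraries and 1.78 and 1.35 CPM in AF9 KD libraries (-1.21, SE 0.31), and its call was lost without control replicate 1 and under DESeq2.

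MT2A, usually the most abundant metallothionein, was at 108 and 168 CPM in control libraries and at 59.3 and 80.9 CPM in AF9 KD libraries. The groups did not overlap, but the control libraries were far apart. Its log2 fold change was -0.97 (SE 0.18), with -0.62 without control replicate 2 and -1.26 without control replicate 1. The rarest members gave little information. MT1M had 3 and 2 counts against 1 and 1, a ratio of 2.56 (95% interval 0.419 to 26.9), and MT1H, which was not tested, had 4 and 2 against 1 and 0, a ratio of 6.14 (0.745 to 282).

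SLC30A1, which carries zinc across the plasma membrane, shares no 31-base stretch with any other gene, so its count does not depend on the copies. It was at 37.9 and 32.6 CPM in control libraries and at 12.1 and 11.9 CPM in AF9 KD libraries (log2 fold change -1.56, SE 0.14). Both KD libraries were below both controls by a wide margin. MTF1, the factor that acts on these promoters, was at 32.5 and 36.3 CPM in control libraries and 32.0 and 33.7 CPM in AF9 KD libraries. Its groups overlapped and its log2 fold change was -0.07 (SE 0.12), turning to 0.02 with total counts in place of TMM factors.

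**Figure D2:**
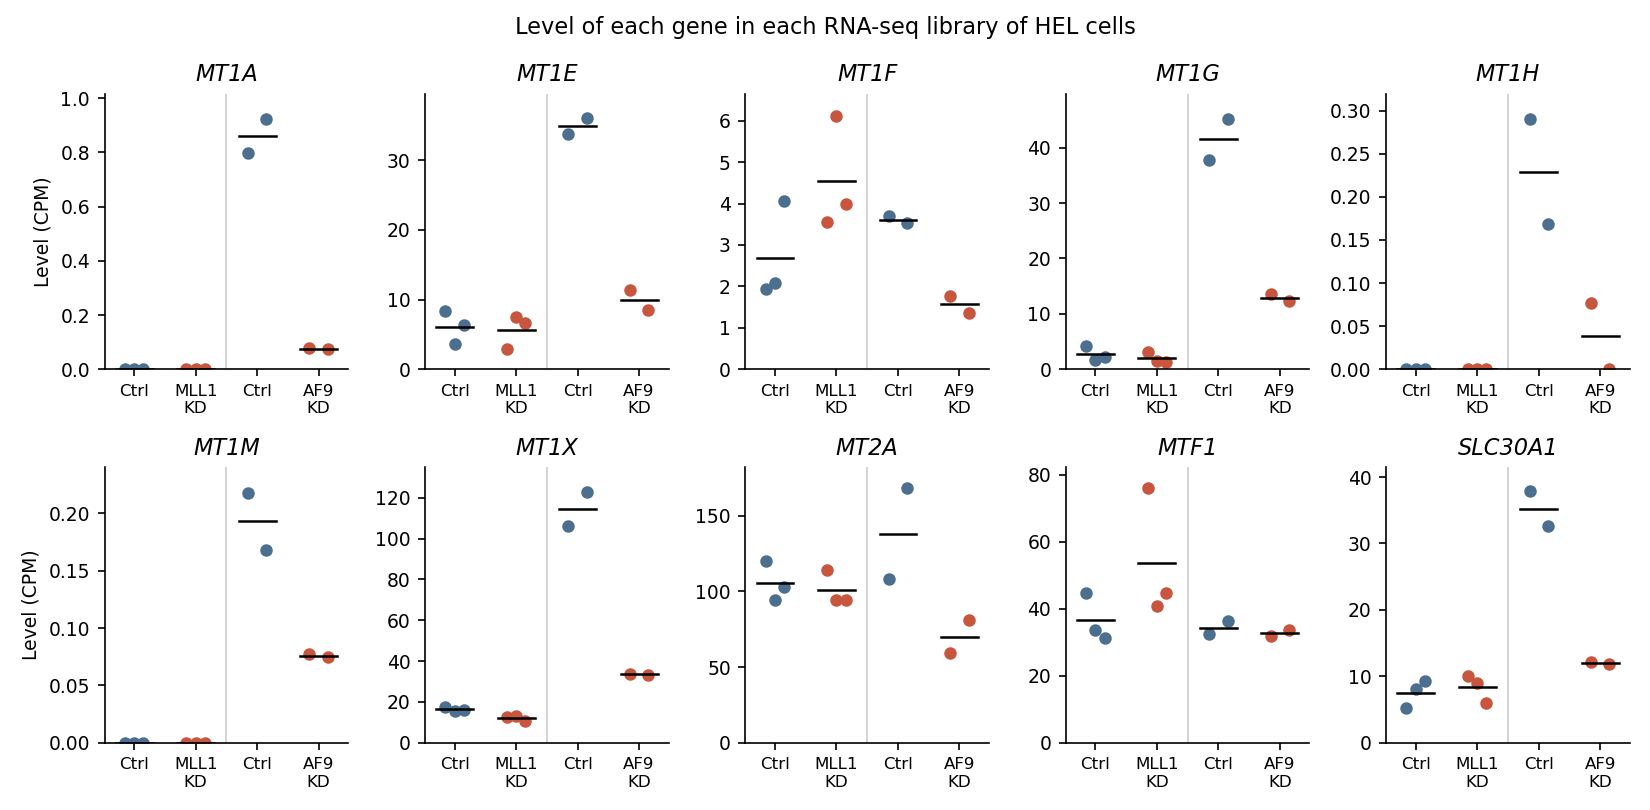
Level in CPM (linear axis from 0, a separate scale for each gene) of the 10 genes in the 10 libraries. Each point is a library, the line is the group mean, and the controls of each experiment stand left of their KD cells. Points of AF9 KD cells lie below those of their controls for all genes except MTF1, while MT1A, MT1H and MT1M sit at 0 throughout the MLL1 experiment.

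The erythroid markers, added up, were at 10100 to 10300 CPM in control libraries and 7190 to 8660 CPM in AF9 KD libraries, and megakaryocyte markers at 1060 to 1190 and 1080 to 1380 CPM. Monocyte and macrophage markers, of which 1 of 4 averaged at least 1 CPM and CD14 was at 0, summed to 86.8 to 93.2 CPM in control libraries and 64.4 to 72.5 CPM in AF9 KD libraries. Their part in the metallothionein values was not tested. In bulk RNA, fewer cells of a type and less RNA per cell cannot be told apart. The balance of calls over all genes moved with the scaling: 1069 higher and 675 lower became 452 and 598 with offsets for GC content, and 1414 and 440 with total counts.

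The other metallothionein rows with counts in the AF9 experiment were MT1JP and MT1L. MT1JP, a noncoding copy between MT1M and MT1A, had 35 and 41 counts in control libraries and 15 and 7 in AF9 KD libraries (log2 fold change -1.82, SE 0.41). MT1L, a pseudogene whose stretches all occur in another annotated transcript, had 9 and 16 counts against 13 and 17 (0.22, SE 0.47). Adding up the 16 metallothionein rows in the table, of which 10 had counts, gave 293 and 381 CPM in control libraries and 122 and 138 CPM in AF9 KD libraries, or 38.6% of control (log2 fold change -1.37, SE 0.12). MT2A made up 36.7% and 44% of the sum in control libraries and 48.5% and 58.6% in AF9 KD libraries, so the MT1 genes accounted for a smaller share after KD.

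**Figure D3:**
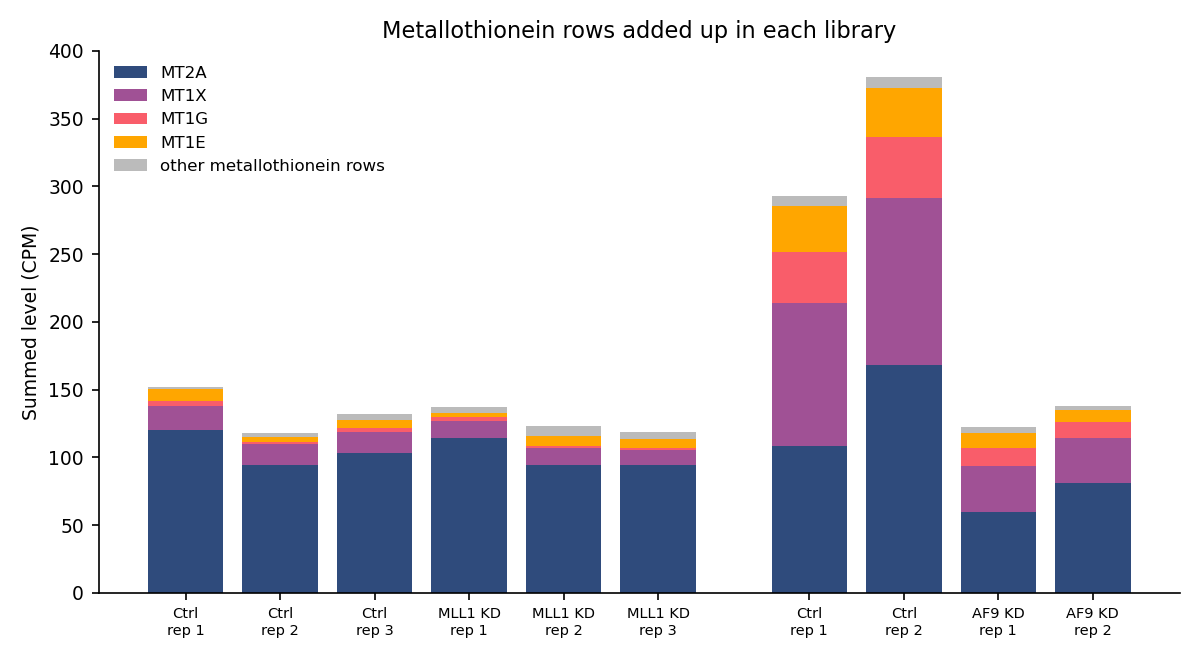
Summed level in CPM of the metallothionein rows in each library, with bars stacked by gene and an axis from 0. The control libraries of the AF9 experiment reach 293 and 381 CPM and the AF9 KD libraries 122 and 138 CPM, while the 6 libraries of the MLL1 experiment lie between 118 and 152 CPM and are mostly MT2A.

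MLL1 KD was not used to choose the genes, and its contrast was tested. The metallothionein genes, MTF1 and SLC30A1 were not called in either direction after MLL1 KD. Of the 7 tested, 0 were called by edgeR's quasi-likelihood test, where 9 genes, 0.0625% of all tested, were called. A single member, MT1X, had an unadjusted p under 0.05 in edgeR, as had 9.97% of all genes tested. DESeq2, which called 1.61% of all genes, also called 0 of the 7 and had MT1X alone under 0.05. With the replicate number as a block, which called 4.72% of all genes, 0 of the 7 were called, and MTF1, MT1X and MT1F, 3 of the 7, had an unadjusted p under 0.05, as had 26.7% of all genes.

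MT1X was at 17.6, 15.8 and 16 CPM in control libraries 1, 2 and 3 and at 12.5, 12.9 and 10.8 CPM in MLL1 KD libraries. All 3 KD libraries were below all 3 controls, and MT1X was the only one of the 7 whose groups did not overlap, as was the case for 17.7% of all genes tested. Its log2 fold change was -0.45 (SE 0.17), with an adjusted p of 0.436 in edgeR and 0.086 with the replicate block. The exact two-sided permutation test gave p = 0.1, the smallest that 3 against 3 libraries allow.

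MT2A was at 120, 94.1 and 103 CPM in control libraries and at 114, 94.0 and 94.5 CPM in MLL1 KD libraries, with a log2 fold change of -0.07 (SE 0.14, edgeR adjusted p = 0.936). MT1E had 8.39, 3.60 and 6.37 CPM against 2.87, 7.51 and 6.70 CPM (-0.12, SE 0.44), and MT1G 4.13, 1.66 and 2.29 CPM against 3.07, 1.56 and 1.40 CPM (-0.41, SE 0.49). The groups overlapped for all 3 genes. MT1F had 1.94, 2.08 and 4.07 CPM against 3.56, 6.10 and 4.0 CPM, with control replicate 3 inside the range of the KD libraries (0.74, SE 0.40, edgeR adjusted p = 0.613). MT1A, MT1H and MT1M had 0 counts in all 6 libraries, which allows up to 3 counts in each. MT1L, with 1, 7 and 3 counts against 18, 5 and 12, was the remaining metallothionein row tested (1.37, SE 0.72) and was not called.

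MTF1 was at 44.7, 33.8 and 31.4 CPM in control libraries and at 76.2, 40.7 and 44.6 CPM in MLL1 KD libraries. Replicate 1 was the highest in both groups, and each KD library was above the control of the same number, although the groups overlapped. The share of all genes with that order was not counted. The numbers set replicate 1 apart only, so replicates 2 and 3 are not shown to be pairs. The log2 fold change was 0.56 (SE 0.27, edgeR adjusted p = 0.563). With the replicate block it was 0.53 with an adjusted p of 0.00577, and the fold change stayed under 1.5. Without MLL1 KD replicate 1 it was 0.22. SLC30A1 was at 5.29, 8.02 and 9.29 CPM in control libraries and at 10.0, 9.07 and 6.05 CPM in MLL1 KD libraries, overlapping groups with a log2 fold change of 0.15 (SE 0.30, edgeR adjusted p = 0.934).

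The summed metallothionein rows were at 152, 118 and 132 CPM in control libraries and at 137, 123 and 119 CPM in MLL1 KD libraries, or 94.1% of control (log2 fold change -0.09, SE 0.14). Markers of T cells, of which 1 of 4 averaged at least 1 CPM and CD3D was at 0, summed to 5.29 to 7.26 CPM in control libraries and 15.3 to 19.6 CPM in MLL1 KD libraries. Erythroid markers summed to 2550 to 2850 CPM against 2160 to 2490 CPM, and megakaryocyte markers to 1860 to 1880 CPM against 1560 to 1680 CPM. Their part in these values was not tested.

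**Figure D4:**
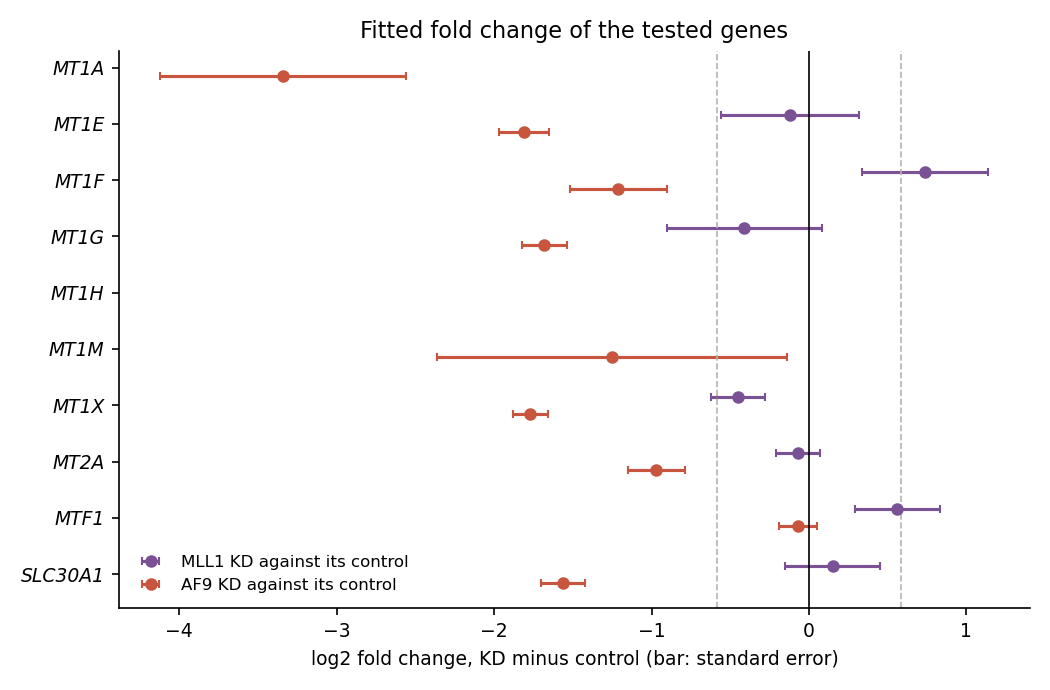
Fitted log2 fold change of KD against control with its standard error (bar) for each tested gene, in the MLL1 and the AF9 experiment. Dashed lines mark a fold change of 1.5 in each direction, and genes that were not tested have no point. In the AF9 experiment all genes except MTF1 lie left of the lower dashed line, and in the MLL1 experiment MT1F is the one point past a dashed line.

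Levels per length are given with the merged exons of each gene as its length. In control cells of the AF9 experiment, MT2A stood at 640 ± 192 TPM (SD, n = 2), MT1X at 281 ± 26.7, MT1G at 235 ± 27.5 and MT1E at 141 ± 5.10 TPM, and MT1X was above MT1G in both libraries. SLC30A1 followed at 25.5 ± 2.91 and MTF1 at 18.3 ± 1.27 TPM, then MT1A (9.24 ± 0.860) and MT1F (8.30 ± 0.366 TPM), and MT1M (1.61 ± 0.309) and MT1H (1.35 ± 0.522 TPM) were last and within their spread. In control cells of the MLL1 experiment, MT2A was at 447 ± 67.8 TPM (SD, n = 3), MT1X at 36.8 ± 3.23, MT1E at 22.6 ± 9.43, MTF1 at 17.7 ± 3.94 and MT1G at 14.0 ± 7.07 TPM, the last 3 within their spread. MT1F (5.59 ± 2.42) and SLC30A1 (4.91 ± 1.24 TPM) were the lowest with counts and also within their spread. The order depends on the length used. With the canonical transcript, which is 404 bases in MT1X against 1727 bases of merged exons, MT1X was at 1200 ± 114 TPM in control cells of the AF9 experiment and MT2A at 1460 ± 438 TPM, within their spread, and MT1F at 36.2 TPM was above MT1A, SLC30A1 and MTF1. The 2 sets of controls, from tables scaled separately, were thus far apart for MT1X, MT1G, MT1E and SLC30A1 and close for MTF1. No test was run across the tables. The erythroid markers also differed between the control sets, at 2550 to 2850 CPM in the MLL1 experiment.

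The 5 genes whose log2 CPM followed the summed metallothionein rows most closely over the 10 libraries, centred within each experiment, were EAF1 (r = 0.979), RPL7 (0.963), HDDC2 (0.960), OSBPL9 (0.959) and RPS25 (0.956), among 12722 genes. SLC30A1 reached 0.80, at rank 274 of these genes, and MTF1 0.165, at rank 4615. EAF1 encodes a partner of the elongation factor ELL, and RPL7 and RPS25 are ribosomal proteins. These values describe the pattern only, since the libraries of each experiment share their processing and the spread comes mostly from the AF9 contrast.

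Lists of genes linked to zinc, copper and other inducers of metallothioneins were examined beside the members. Medians of the log2 fold change are given for each list, and over all genes tested the median was 0.01 in both experiments. After AF9 KD, 8.02% of all genes tested were called higher and 5.06% lower, and each list count for AF9 KD stands beside these shares. Of 11 tested zinc importers, 2 were called higher and 0 lower, and the list median was 0.09. SLC39A4, an importer at the plasma membrane, was at 1.67 and 3.10 CPM in control libraries and 6.34 and 7.33 CPM in AF9 KD libraries (log2 fold change 1.54, SE 0.29), and SLC39A13, which releases zinc from vesicles, had a log2 fold change of 1.02 (SE 0.25). Among 7 tested ZnT genes other than SLC30A1, SLC30A10 (-1.22, SE 0.15) and SLC30A7 (-0.63, SE 0.11) were called lower and SLC30A3 (1.12, SE 0.20) higher, with a median of -0.17. SLC30A10 is known mainly as a manganese exporter, SLC30A7 loads zinc into the secretory pathway and SLC30A3 fills synaptic vesicles.

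Of 13 tested heat shock genes, 3 were called higher and 0 lower, and both AF9 KD libraries were above both controls for 12, as for 32.8% of all genes tested (list median 0.37). HSPA1B went from 2.90 and 3.27 CPM to 10.1 and 11.4 CPM (log2 fold change 1.80, SE 0.22), and HSPA1A (1.69) and HSPB1 (1.09) were the other two, while HSPA8 stood at 0.40. HSPA1A and HSPA1B are near-identical copies, so the split of their reads is uncertain. Of 9 tested glucocorticoid response genes, 2 were called lower and 0 higher (median -0.30), namely TSC22D3 (-1.61, SE 0.22) and KLF9 (-0.96, SE 0.13). The oxidative stress list holds NRF2 targets and also the regulators NFE2L2 and KEAP1. Among its 11 tested genes, SLC7A11, the cystine transporter, was the one gene called (-1.34, SE 0.17), lower, with a list median of 0.09. Among 11 copper genes SCO2, a copper chaperone of cytochrome oxidase, was the one called (1.15, SE 0.24), higher, with a median of 0.20.

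After MLL1 KD, edgeR called 0 of the 63 tested genes of these lists, where 0.0625% of all genes tested were called. In that fit 8 of the 63 had an unadjusted p under 0.05, as had 9.97% of all genes. DESeq2 called 1, where it called 1.61% of all genes. With the replicate block 7 were called, 3 higher and 4 lower, where 4.72% of all genes were called. SLC39A8, an importer of zinc and manganese, was at 92.1, 113 and 106 CPM in control libraries and 55.4, 74.1 and 66.4 CPM in MLL1 KD libraries (log2 fold change -0.67, edgeR adjusted p = 6.24e-05 with the block and 0.191 without). SLC39A6, a zinc importer at the plasma membrane, was higher with the block (0.66, edgeR adjusted p = 0.00526), as were HSPA8 (0.92) and CEBPD (1.40), and FKBP5 was lower (-0.73). Without the block the edgeR adjusted p of these 4 was 0.335, 0.6, 0.588 and 0.299 in that order. HSPA8 groups overlapped, at 1450, 606 and 598 CPM against 3360, 1040 and 1020 CPM. CEBPD had few counts, 2, 21 and 18 against 34, 28 and 54. The medians of the lists lay between -0.13 for zinc importers and 0.47 for heat shock genes, leaving out the list of other metallothionein rows with 1 gene tested.

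**Figure D5:**
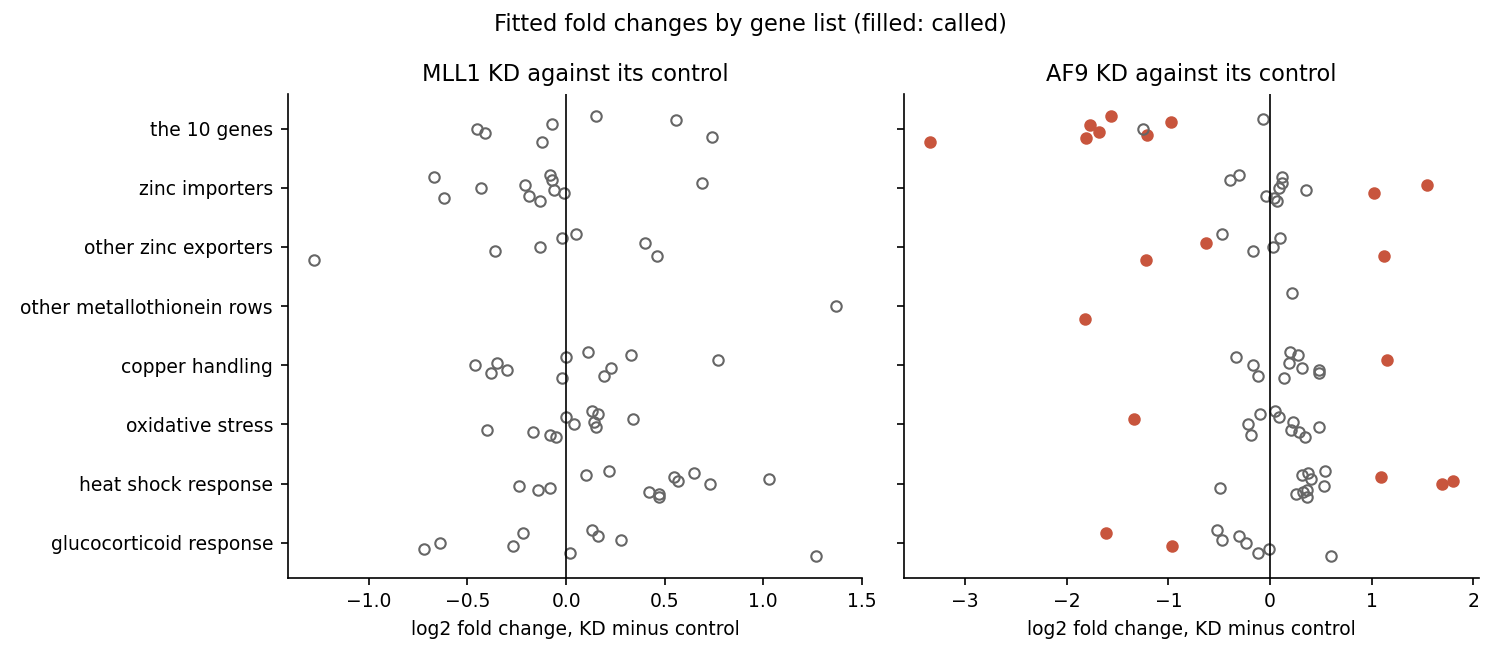
Fitted log2 fold change of each tested gene in 8 groups, the 10 genes and 7 lists, after MLL1 KD (left) and AF9 KD (right). Filled points are genes called without the replicate block. On the right 7 of the 10 genes are filled on the lower side, 3 heat shock genes are filled on the higher side, and no point is filled on the left.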

How the data were processed

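Per the labels and the study's methods, the authors filtered reads with fastp version 0.13.1, mapped them to hg38 with HISAT2 version 2.1.0 and counted them per gene, by strand, with featureCounts version 1.6.1, and the deposited values are raw counts. The annotation behind the counts is not given in the sources used here. The 10 genes and the gene lists were chosen with earlier results of these data known. Symbols were matched to GENCODE version 44 (92.5% of 28103) for exon length and GC content. Counts were tested in R version 4.3.3 with edgeR version 4.0.16 (TMM factors, glmQLFit, glmQLFTest), and DESeq2 version 1.42.0 was the alternative. Standard errors come from the F statistic, and intervals cover counting error only. The fits were also run on simulated counts with the same dispersion for every gene and no replicate effect, where only well-counted genes were changed. That simulation does not cover the genes with few counts or the spread between replicates seen here. Alternatives were other size factors, filters and fold thresholds, GC offsets (lowess span 0.3), the replicate block and each library left out. Named are the 10 genes, metallothionein rows with counts, both targets, at most 4 genes called per list with the largest change, and the 5 genes most like the summed rows. In the MLL1 experiment, libraries with the same number deviated together from their group means, with correlations of 0.648, 0.326 and 0.352, so the numbers were taken to pair them. Replicates 2 and 3 correlated across numbers as well (0.36 and 0.37) and replicate 1 did not (-0.509 to -0.454), so the numbers set replicate 1 apart only. The other samples of the series were not analysed here.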

Additional observations from a re-analysis of the deposited data

How the results depend on the processing

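The count of the 10 genes called after MLL1 KD was 0 under the 18 alternatives run. Alternatives without DESeq2 or the block called at most 0.368% of all genes tested, so a count of 0 was nearly fixed in advance there. With DESeq2 or the block the share was 1.48% to 4.73%, still too low for 0 of 7 to say much. Leaving out 1 library each gave 0 to 0, but 5 of these 6 fits called 0 of all genes tested and the other 53, so they say nothing about stability. After AF9 KD the count was 7, it was 6 to 7 with 1 library left out, 5 with DESeq2 on all genes and 4 with DESeq2 on the same genes. DESeq2 gave MT1A no adjusted p, and MT1F (and, on the same genes, MT2A) missed the threshold. The replicate block left it at 7. The genes were chosen from this contrast, so these counts show only how calls moved with the processing and are no support for the fall. The AF9 control and KD libraries of the same number correlated at 0.156 over 2 pairs, too few to pair them, and the block called 1957 genes there.

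Of the 63 list genes tested after MLL1 KD, 0 were called, 1 with either DESeq2 fit, 7 with the replicate block and 8 with the block and GC offsets. The shares of all genes called were 0.0625%, 1.48% to 1.61%, 4.72% and 4.73% in the same order. After AF9 KD 13 of the 64 tested list genes were called, where 13.1% of all genes tested were called. With 1 library left out 10 to 17 were called, where 7.88% to 14.9% of all genes were. With no fold change threshold 30 were called, where 29% of all genes were. Over all genes after MLL1 KD, edgeR called 9, DESeq2 232 on the same genes and 213 on all genes, and the blocked fit 679. After AF9 KD edgeR called 1744 and 1050 with GC offsets.

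With 1 library left out, log2 fold changes ran from -0.38 to 0.21 for MT1E, -0.87 to 0.04 for MT1G, -0.17 to 0.03 for MT2A and -0.05 to 0.34 for SLC30A1 after MLL1 KD, and from -0.15 to 0.01 for MTF1 after AF9 KD. Directions that turned belonged to genes that were not called. Without control replicate 1 of the MLL1 experiment, MT1E came to 0.17, MT1G to 0.04, MT2A to 0.03 and SLC30A1 to -0.05 on the log2 scale, and without MLL1 KD replicate 1, MT1E came to 0.21 and SLC30A1 to -0.01. In the AF9 experiment MTF1 came to 0.02 with total counts and to 0.01 without control replicate 2. The cause was not tested. Adding up metallothionein rows gave -1.37 after AF9 KD, where the median of the tested metallothioneins was -1.68. Levels per length in control cells, recomputed after seeing the data with the length of the canonical transcript, were 199 TPM for MT1E, 36.2 for MT1F, 430 for MT1G, 2.46 for MT1H, 2.07 for MT1M, 1200 for MT1X and 1460 for MT2A in the AF9 experiment, and 24.4 for MT1F, 25.6 for MT1G, 157 for MT1X and 1020 TPM for MT2A in the MLL1 experiment. The low counts of MT1A, MT1H and MT1M limit what these libraries can show of them.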
